A study of Mus musculus with 28 samples.

Results

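The comparison set marrow-derived cells of the brain parenchyma (donor microglia, 8 libraries) against macrophages of the leptomeninges that belonged to the irradiated host (host leptomeningeal macrophages, 4 libraries), 12 of the 28 libraries of the series. Members were chosen by their sort labels alone. Hosts were Cx3cr1-gfp/+ mice, which carry GFP in place of 1 copy of the fractalkine receptor gene. They were lethally irradiated and given marrow with floxed human DNMT3A (hDNMT3A fl/fl). In control chimeras the marrow lacked Vav-Cre, and in mutant chimeras it carried Vav-Cre, a recombinase driven in all blood-forming cells. At 16 weeks after transplantation, GFP-negative (donor) and GFP-positive (host) cells were sorted from the parenchyma and from leptomeningeal washes. The groups were donor microglia of control and mutant chimeras (4 libraries each) and host leptomeningeal macrophages of control and mutant chimeras (2 libraries each). In host cells the mutant label names the transplanted marrow, since the host is labelled with Cx3cr1-gfp/+ alone. The remaining populations, host microglia and donor leptomeningeal cells (8 libraries each), served as reference points. Every animal was irradiated and transplanted, so the series has no macrophages of an untreated brain in this comparison. Origin (donor or host), compartment, exposure of the cell itself to irradiation, the number of Cx3cr1 copies and the tissue digestion all differ between both sides and cannot be told apart here.

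Border macrophages lie in the meninges and around vessels, outside the parenchyma, and are known for the scavenger and lectin receptors Mrc1, Cd163 and Lyve1 and for the chemokine Pf4. Microglia, the macrophages of the parenchyma, are set apart by the transcription factor Sall1 and by surface proteins such as Tmem119 and the purinergic receptor P2ry12. After lethal irradiation, cells of the transplanted marrow settle in the parenchyma, take up a microglia-like place and keep a transcriptome with high Apoe and Ms4a7. The question was how far such cells resemble the macrophages of the brain border that belong to the host.

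RNA was measured as unique molecular identifier (UMI) counts by MARS-seq. Donor microglia libraries held 479077 to 1013608 UMIs and host leptomeningeal libraries 877905 to 1475135, and levels below are CPM, a gene's UMIs divided by the library total after TMM scaling. The lowest level that 3 UMIs allow was 2.86 to 6.20 CPM in donor microglia and 2.02 to 3.35 CPM in host leptomeningeal libraries. This floor covers counting error only. Whether each library is a separate animal is not in the labels, so the p-values may cover technical spread only. The host leptomeningeal libraries carried the defining border genes in full (Mrc1 at 986 to 1619 CPM and Lyve1 at 529 to 1026 CPM). They also carried Sall1 at 11.4 to 48.4 CPM, above the 0.382 to 6.08 CPM of donor leptomeningeal cells and below the 264 to 314 CPM of host microglia. Donor microglia had Sall1 at 8.27 to 33.03 CPM, so this defining factor of microglia was low in them.

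RNA of choroid plexus and neural marker genes was present in every donor microglia library, and its values stand beside all results below. The choroid plexus and ependyma list took 1.68% to 3.52% of UMIs in donor microglia, 0.00273% to 0.0126% in host leptomeningeal macrophages and at most 0.0179% in host microglia from the same digested parenchyma. Astrocyte genes took 0.167% to 0.829% against 0.0267% to 0.0382%, neuron genes 0.0779% to 0.274% against 0.0680% to 0.0791%, and oligodendrocyte genes 0.164% to 0.548% against 0.182% to 0.230%. The neuron and oligodendrocyte shares overlapped between groups, and the choroid plexus and astrocyte shares did not. Neutrophil genes ran from 0.118% to 1.16% in donor microglia, a wider range than the 0.215% to 0.633% of host leptomeningeal macrophages. In the other direction, lymphocyte genes took 0.0882% to 0.298% in host leptomeningeal libraries against 0.0441% to 0.0667% in donor microglia. The same list took 0.0717% to 0.0797% in host microglia and 0.0630% to 0.110% in donor leptomeningeal cells. Of the host leptomeningeal libraries only mutant library 2 stood above 0.106%, at 0.298%. Genes of meningeal fibroblasts and mural cells took 0.0136% to 0.0245% in host leptomeningeal libraries against 0.00313% to 0.00867% in donor microglia. In such bulk samples fewer cells of a type and less RNA per cell cannot be told apart.

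**Figure D1:**
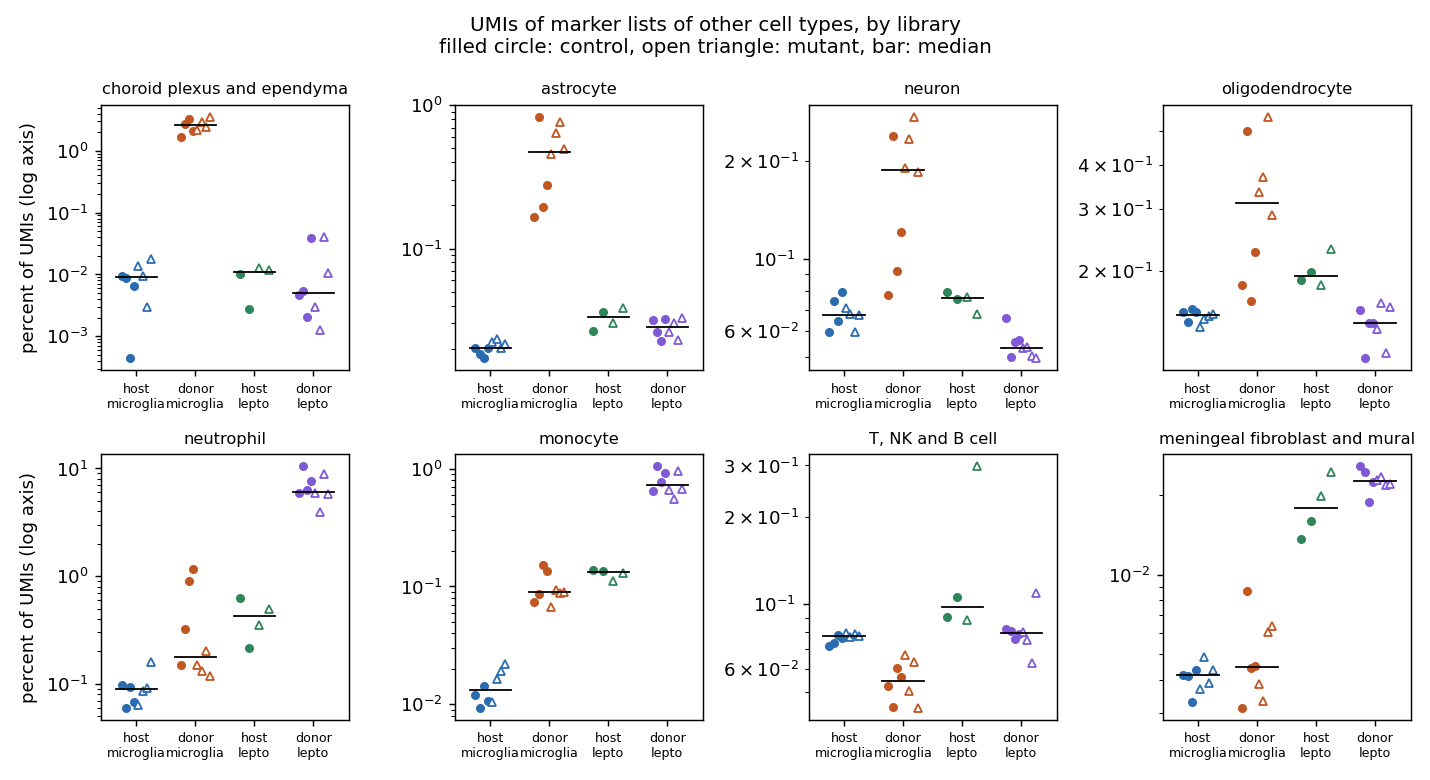
Share of each library's UMIs (percent, log axis) in 8 marker lists of other cell types, for host microglia, donor microglia, host leptomeningeal macrophages and donor leptomeningeal cells. Each point is 1 library and each bar a median. Choroid plexus genes reach 1.68% to 3.52% in donor microglia and stay at or below 0.0411% in the other populations.

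Across the transcriptome, 5651 of 12327 genes tested (45.8%) passed an adjusted p of 0.05 in edgeR's quasi-likelihood test, 2983 (24.2%) higher in donor microglia and 2668 (21.6%) lower. At least 2-fold differences numbered 1820 higher (14.8%) and 1075 lower (8.72%), and at least 16-fold differences 396 higher (3.21%) and 60 lower (0.487%). Libraries did not overlap for 1269 genes with donor microglia higher (10.3%) and 1446 with donor microglia lower (11.7%). Among the 9031 genes with a mean of at least 10 CPM in host microglia or donor leptomeningeal cells, populations with little choroid plexus RNA, 4239 passed (46.9%), of which 1813 were higher (20.1%) and 2426 lower (26.9%), so the balance of directions turned. That restriction was chosen after the data were seen.

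The 9 tested choroid plexus and ependyma genes all rose in donor microglia, with a median log2 difference of 5.45 (unchanged with the genes absent from host leptomeningeal libraries set to their bound) against 0.02 over all genes tested. Ttr, the thyroid hormone carrier that choroid plexus epithelium secretes, ran from 15664 to 33320.2 CPM (median 23538) in donor microglia. It was at 81.4 and 7.83 CPM in the control and 107 and 103 CPM in the mutant host leptomeningeal libraries, 8.42 ± 1.29 log2 units apart (adjusted p = 1.68e-05). The highest host leptomeningeal library lay far below the lowest donor library. Enpp2, an enzyme that makes lysophosphatidic acid, ran from 629 to 1614 CPM (median 1095) against 3.35 to 11.3 CPM. The folate receptor Folr1 and the BMP antagonist Sostdc1 had 799 and 742 UMIs in the donor libraries and 0 in all 4 host leptomeningeal libraries, at least 210.4-fold and 195.4-fold higher against a floor of 3 UMIs over the group. Of the 15 largest rises, Folr1, Sostdc1, Ttr and Enpp2 were on the choroid plexus list. Others were Slc7a10, an amino acid transporter of astrocytes (0 UMIs in host leptomeningeal libraries, at least 52.94-fold), Ppp1r1b, a phosphatase regulator of striatal neurons (6.29 ± 0.44), Pcp2 of cerebellar Purkinje cells (6.58 ± 0.60) and Ddn of dendrites (6.71 ± 0.61). AW047730 and Gm49069 were at 0 UMIs in host leptomeningeal libraries (at least 109.6-fold and 108.2-fold), and Wfdc2, Car12 and 2900040C04Rik had 1 to 3 UMIs there (ratios of 87.3, 52.94 and 236.2, with 95% counting intervals of 23.88 to 725.4, 17.86 to 258.8 and 42.08 to 9362). Nkain4 (6.91 ± 0.61) and Ecrg4 (6.59 ± 0.40) complete the 15. Over all genes tested 24.2% rose and 21.6% fell, which stands beside the counts of this and the following lists. All 17 astrocyte genes rose (median 4.00), 16 of 20 neuron genes rose and 2 fell (median 2.45), and 6 of 9 oligodendrocyte genes rose and 2 fell (median 2.31). The falls were Thy1 (-1.35 ± 0.21) and Calm2 (-0.57 ± 0.09) of the neuron list and Cnp (-0.62 ± 0.21) and Trf (-0.99 ± 0.10) of the oligodendrocyte list, and Cnp did not pass in 4 of the alternatives. The part of RNA from such cells in the smaller rises was not tested.

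Control and mutant chimeras hold no library in common and gave the difference separately. In control chimeras 3463 genes (28.1%) passed and in mutant chimeras 4333 (35.2%). Of these, 2622 passed in both with the same direction, 75.7% of the control and 60.5% of the mutant calls, and 2 passed with opposite directions. The differences correlated across 12327 genes (Pearson r = 0.780, Spearman rho = 0.745), where genes are not independent replicates. Counts within a genotype rest on 2 host leptomeningeal libraries. Without control host library 1, which leaves 1 control host library assumed to vary like the other groups, 2000 genes passed in control chimeras. With those groups fitted alone 2029 passed. Without mutant host library 2, 2680 passed in mutant chimeras.

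**Figure D2:**
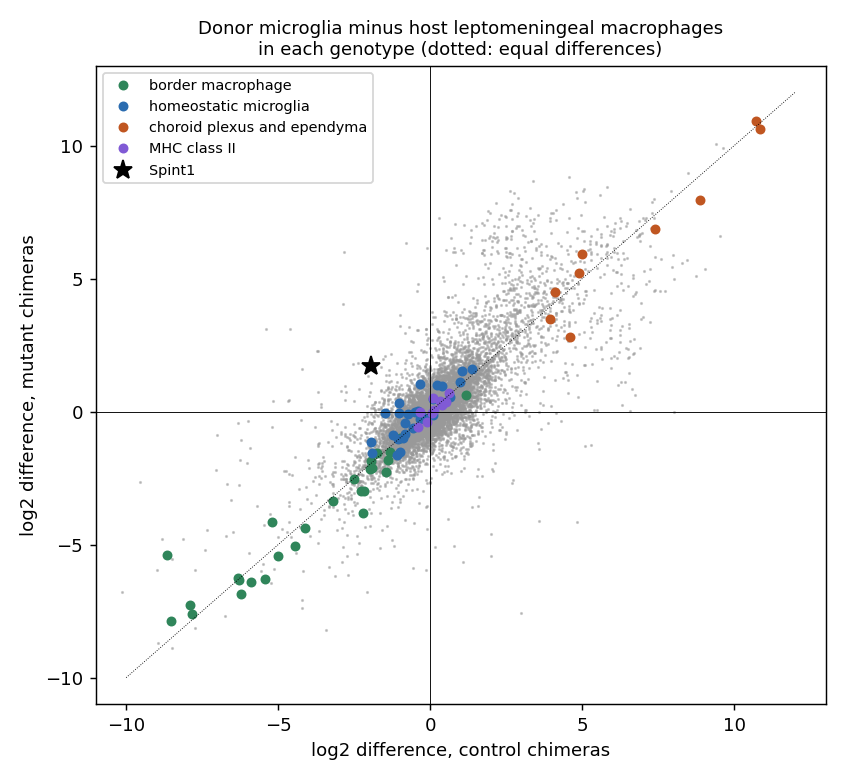
Log2 difference of donor microglia minus host leptomeningeal macrophages for 12327 genes in control (x axis) and mutant (y axis) chimeras. Border macrophage genes lie low in both genotypes and choroid plexus genes high, while Spint1 lies on opposite sides. Fitted values of genes with 0 UMIs on 1 side, such as Folr1, depend on the prior count and are no bounds.

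Border macrophage genes were the list with the lowest median. Of 27 tested members, 26 were lower in donor microglia and 1 was higher, beside 21.6% and 24.2% over all genes tested. The median log2 difference was -3.28. The list took 0.301% to 0.420% of UMIs in donor microglia, 1.69% to 2.31% in host leptomeningeal macrophages, 0.164% to 0.197% in host microglia and 0.530% to 0.925% in donor leptomeningeal cells. Donor microglia thus stood above host microglia and below both leptomeningeal populations without overlap. Mrc1, the mannose receptor, ran from 175 to 275 CPM (median 208) in donor microglia. It was at 986 and 1345 CPM in the control and 1345 and 1619 CPM in the mutant host leptomeningeal libraries, so that all 4 host libraries lay above all 8 donor libraries (-2.62 ± 0.11, adjusted p = 1.89e-23). The chemokine Pf4 ran from 222 to 427 CPM (median 329) in donor microglia. It was at 2691 and 3239 CPM in the control and 3491 and 3485 CPM in the mutant host leptomeningeal libraries (-3.28 ± 0.14, adjusted p = 9.89e-18). Host microglia held Mrc1 at 12.03 to 20.1 CPM and Pf4 at 15.3 to 30.9 CPM, so both genes sat well above host microglia and below the border in donor microglia.

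In other border genes donor microglia were far below the host leptomeningeal level. Cd163, the scavenger receptor for haptoglobin and hemoglobin, ran from 0 to 29.5 CPM (median 3.69) in donor microglia. It was at 409.9 and 413 CPM in the control and 595 and 741 CPM in the mutant host leptomeningeal libraries (-5.86 ± 0.36, adjusted p = 2.01e-11). Lyve1, a hyaluronan receptor of the macrophages that line vessels, ran from 0 to 22.9 CPM (median 2.05) and was at 529 to 1026 CPM at the border (-6.53 ± 0.40). The folate receptor Folr2 ran from 3.36 to 16.5 CPM (median 6.75) against 492 to 759 CPM (-6.27 ± 0.26), with host microglia at 3.86 to 8.09 CPM. Cbr2, a carbonyl reductase, ran from 25.9 to 49.5 CPM (median 34.9) against 1946 to 3070.0 CPM (-6.15 ± 0.18). The coagulation factor subunit F13a1 ran from 18.3 to 72.4 CPM (median 35.2) against 983 to 1410.0 CPM (-4.74 ± 0.22). In each of these genes every host leptomeningeal library exceeded every donor microglia library by a wide gap. Host microglia were lower still in Cbr2, at 4.56 to 9.89 CPM, and in F13a1, at 6.14 to 15.4 CPM, without overlap. Folr2 and Lyve1 did not pass against host microglia (adjusted p = 0.401 and 0.0609), and Cd163 did (adjusted p = 0.00382). Donor leptomeningeal cells held Cbr2 at 656 to 1321 CPM and F13a1 at 489.8 to 726 CPM, between both.

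The C-type lectins of the Cd209 cluster, which bind mannose-rich sugars, and the lectin Fcna led the differences. Cd209b had 3 UMIs in all 8 donor libraries and 769 in the 4 host libraries, a ratio of 324.4 with a 95% counting interval of 110.6 to 1577. Cd209g ran from 0 to 4.76 CPM (median 0) against 271 to 386 CPM (-7.72 ± 0.33), Cd209f from 0 to 14.3 CPM (median 1.03) against 608 to 906 CPM (-7.58 ± 0.36) and Fcna from 0 to 4.22 CPM (median 0) against 213 to 455 CPM (-7.92 ± 0.51). The Cd209 genes are near copies, so how reads divide among them is uncertain, as it is for the Ms4a, H2 and C-C chemokine genes. Timd4, a receptor for phosphatidylserine on dying cells, had 2 UMIs in donor microglia and 299 in host leptomeningeal macrophages, a ratio of 189.2 (51.93 to 1570). In donor leptomeningeal cells Cd209b was at 6.29 to 15.04 CPM and Timd4 at 0 to 3.29 CPM, so both were below the host leptomeningeal range in marrow-derived cells of either compartment. Clec10a, a lectin for galactose sugars (-4.68 ± 0.22), the phospholipase Pla2g2d (-6.30 ± 0.24) and Ccn1, a matrix protein (-5.63 ± 0.39), were the rest of the largest falls outside complement and chemokines.

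Promoter windows of the 3 genes with the largest falls are shown because these genes fell together. They are RefSeq sequences on GRCm38.p6, 250 bases before to 50 after the gene start, on the gene's strand.
Cd209b, chr8:3926792-3927091, minus strand: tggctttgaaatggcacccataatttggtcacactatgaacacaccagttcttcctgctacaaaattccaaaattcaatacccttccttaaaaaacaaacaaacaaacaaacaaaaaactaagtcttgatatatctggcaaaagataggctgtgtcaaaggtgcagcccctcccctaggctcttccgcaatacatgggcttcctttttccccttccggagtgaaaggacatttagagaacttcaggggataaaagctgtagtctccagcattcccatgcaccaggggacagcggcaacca
Fcna, chr2:25627925-25628224, minus strand: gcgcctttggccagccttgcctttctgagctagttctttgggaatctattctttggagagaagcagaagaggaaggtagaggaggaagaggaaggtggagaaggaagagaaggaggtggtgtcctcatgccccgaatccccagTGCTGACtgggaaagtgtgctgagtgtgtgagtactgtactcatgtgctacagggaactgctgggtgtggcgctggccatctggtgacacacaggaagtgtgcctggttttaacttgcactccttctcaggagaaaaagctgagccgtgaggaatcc
Cd209g, chr8:4134486-4134785, plus strand: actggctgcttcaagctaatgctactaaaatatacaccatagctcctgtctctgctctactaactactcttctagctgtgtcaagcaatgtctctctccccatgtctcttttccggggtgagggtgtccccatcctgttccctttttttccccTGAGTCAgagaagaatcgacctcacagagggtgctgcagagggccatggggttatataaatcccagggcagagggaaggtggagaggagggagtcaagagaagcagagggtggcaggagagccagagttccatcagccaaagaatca
Capitals mark a match to a MAF site (TGCTGAC) in Fcna and to AP-1 (TGACTCA, here on the other strand) in Cd209g, and Cd209b held neither, nor the PU.1 letters GAGGAAGT. Both strands were searched, and of 32851 windows of this length 4.67% held the MAF letters, 5.20% AP-1 and 3.20% PU.1. A match describes the letters and is no binding site. The windows of AW047730, Slc7a10 and 2900040C04Rik, which rose, held none of the 3 motifs.

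Ms4a7, a membrane protein of the CD20 family, was the only border list member that was higher in donor microglia. It ran from 526 to 915 CPM (median 736) in donor microglia. It was at 367 and 323 CPM in the control and 398 and 491 CPM in the mutant host leptomeningeal libraries (0.89 ± 0.15, adjusted p = 1.76e-05), with host microglia at 10.7 to 24.6 CPM. Smaller falls were seen in Stab1, a scavenger receptor (-1.61 ± 0.11), Gas6, the bridging ligand for the receptor Axl (-2.02 ± 0.13), and Maf, a transcription factor (-0.99 ± 0.12). For Maf and Gas6 the host microglia, at 95.7 to 150.3 and 313 to 525 CPM, exceeded donor microglia too.

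**Figure D3:**
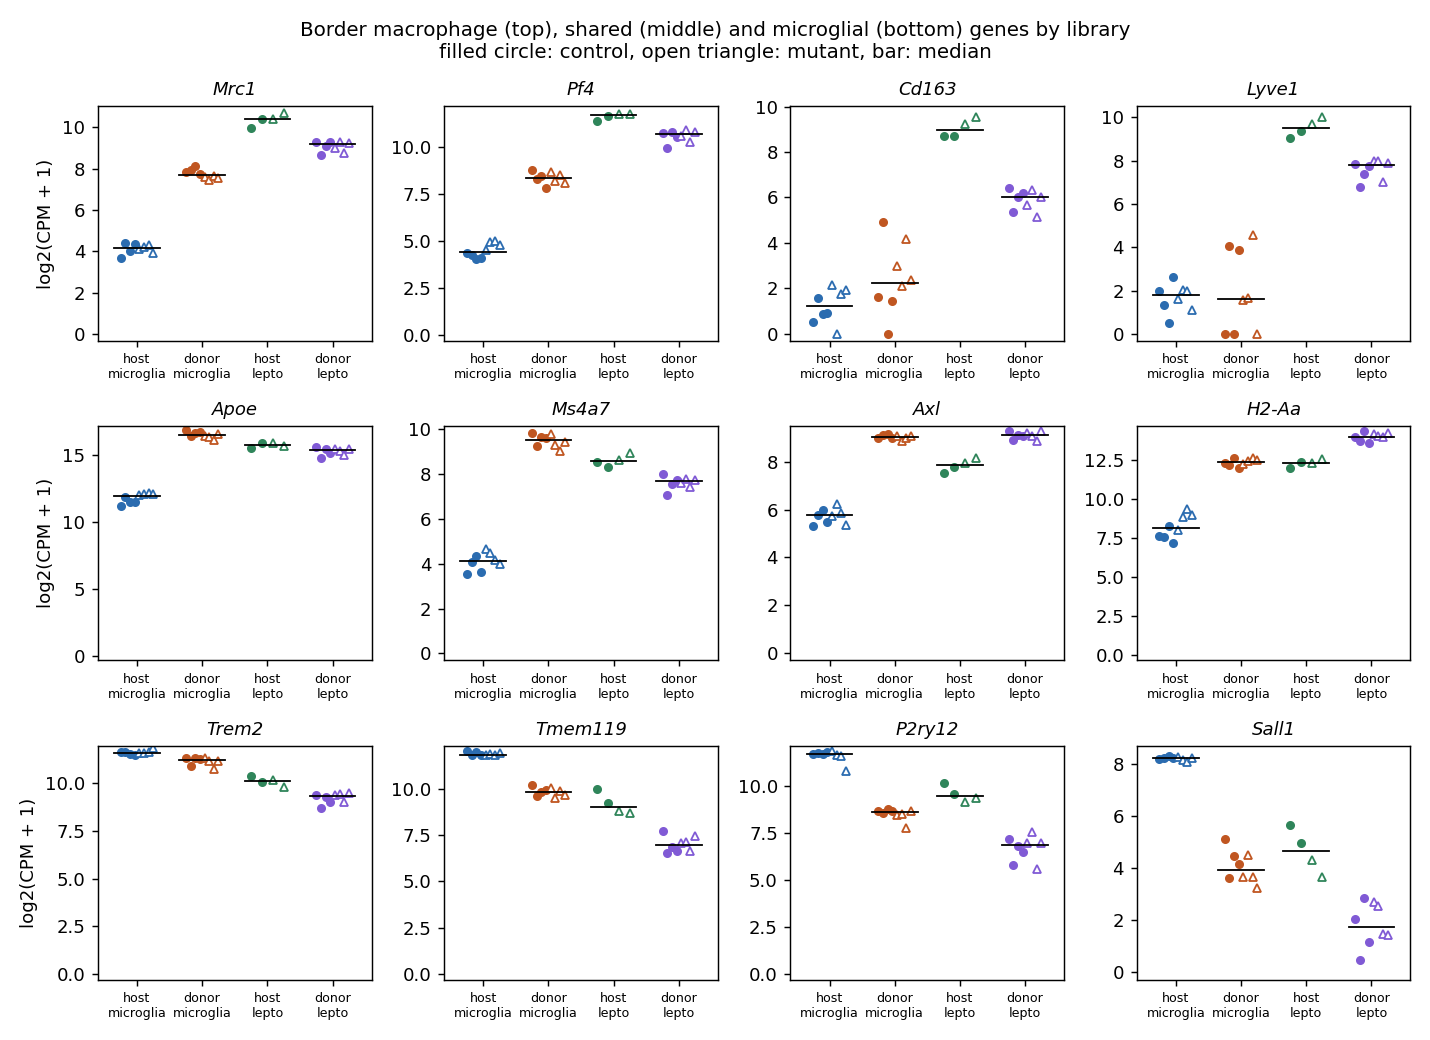
Level of 12 genes as log2(CPM + 1) in each library of the 4 populations, with filled circles for control, open triangles for mutant and bars for medians. Mrc1 and Pf4 of donor microglia lie between both host populations, Cd163 and Lyve1 lie far below both leptomeningeal populations, and Apoe and Ms4a7 lie above all other populations.

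Likeness was summarised over the whole table. Distance between libraries was the root mean square difference of log2 CPM over the 12327 genes. Each donor microglia library was nearest to other donor microglia (0.889 ± 0.067, SD, n = 8), then to host leptomeningeal macrophages (1.27 ± 0.075), donor leptomeningeal cells (1.37 ± 0.086) and host microglia (1.45 ± 0.108). In 8 of 8 donor microglia libraries the mean distance to host leptomeningeal macrophages was smaller than that to donor leptomeningeal cells and to host microglia. Donor leptomeningeal libraries held 3.90% to 10.4% of UMIs in neutrophil genes and 0.551% to 1.04% in monocyte genes, against 0.118% to 1.16% and 0.0666% to 0.151% in donor microglia and 0.215% to 0.633% and 0.112% to 0.138% in host leptomeningeal macrophages, and their part in this order was not tested. These distances share the donor libraries, with their brain cell RNA, and the comparisons below do as well. Against host microglia 7448 genes passed (60.4%) and against donor leptomeningeal cells 7646 (62%), each with 8 libraries on both sides. With 4 libraries in each reference population to match the host leptomeningeal number, 6708 and 6790 passed. Depth was not matched. Median UMIs per library over all libraries were 1129016 in host leptomeningeal macrophages, 2052861 in host microglia and 2229246.5 in donor leptomeningeal cells. The part of depth in these counts was not tested. The median absolute log2 difference was 0.539 to host leptomeningeal macrophages, 0.589 to host microglia and 0.618 to donor leptomeningeal cells.

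A position was then given to donor microglia between both host populations, with 0 for the host microglia level and 1 for the host leptomeningeal level on the log2 scale. Genes at least 4-fold apart between host populations in one genotype were placed with libraries of the other genotype. Of genes high at the border, 636 measured in mutant chimeras had a median position of 0.593 (quartiles 0.353 and 0.908) and 734 measured in control chimeras 0.626 (0.349 and 0.967). Of genes high in host microglia, 196 measured in mutant chimeras had a median of 0.623 (0.390 and 0.922) and 317 measured in control chimeras 0.752 (0.445 and 1.22). Donor microglia were nearer the host leptomeningeal level in 60.9% and 62.7% of the border-high genes and in 61.7% and 71.3% of the microglia-high genes. Positions spread widely. Beyond the host leptomeningeal level lay 132 of 636 and 172 of 734 border-high genes, and 36 of 196 and 105 of 317 microglia-high genes. By the median alone, the typical gene that separates both host populations was intermediate in donor microglia and somewhat nearer the border.

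The cell type lists departed from that typical gene in opposite ways. Of the 26 border macrophage genes that were at least 2-fold apart between host populations, the median position was 0.247, 8 were nearer the border, and 13 were at a position below 0.25. Of the 21 such homeostatic microglia genes the median position was 1.16, 19 were nearer the border, and 13 lay beyond the host leptomeningeal level. Donor microglia were therefore low in many genes of both identities. These positions are descriptions of lists chosen with earlier results known. Host leptomeningeal libraries held RNA of the microglial gene Sall1. Whether it came from microglia among the sorted cells was not tested, nor was its part in the second position.

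**Figure D4:**
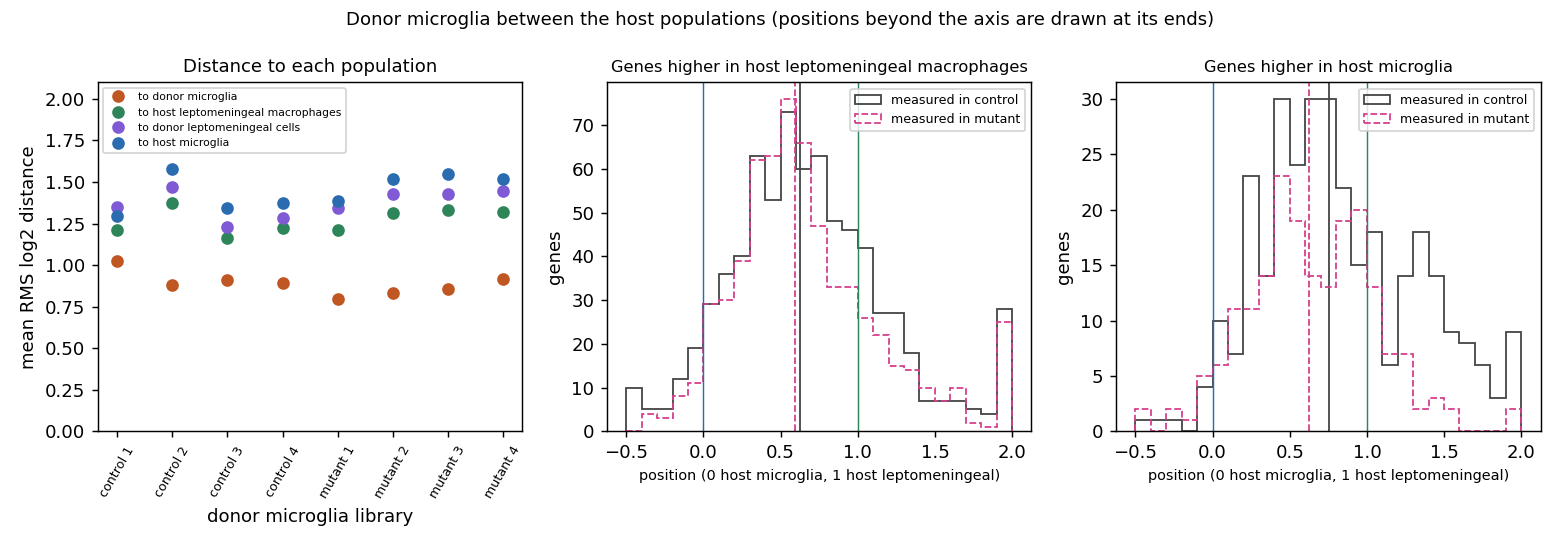
Left, mean root mean square log2 distance from each of the 8 donor microglia libraries to each population. Middle and right, position of donor microglia between host microglia (0) and host leptomeningeal macrophages (1) for genes chosen in the other genotype, with vertical lines at the medians, between 0.593 and 0.752. Distances to host leptomeningeal macrophages are below those to host microglia in every library.

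Genes that mark marrow-derived cells in the brain were present on both sides. Of 23 such genes, 6 were higher and 11 lower in donor microglia (median log2 difference -0.08), beside 24.2% and 21.6% over all genes tested. Apoe, the lipid carrier, ran from 71591 to 120151 CPM (median 90524) in donor microglia. It was at 46583 and 59290.3 CPM in the control and 61549 and 52345 CPM in the mutant host leptomeningeal libraries, lower than every donor library (0.76 ± 0.12, adjusted p = 2.86e-06), with host microglia at only 2347 to 4461 CPM. Axl, which binds Gas6 on dying cells, ran from 465 to 577 CPM (median 523) against 186 to 288 CPM (1.17 ± 0.12, adjusted p = 4.82e-11), a range that overlaps the 468 to 631 CPM of donor leptomeningeal cells. Klra2, a lectin-like receptor of the Ly49 family, ran from 58.1 to 80.5 CPM (median 63.03) against 17.7 to 18.8 CPM (1.85 ± 0.18). The inhibitory lectin Clec12a ran from 157 to 266 CPM (median 206) against 98.3 to 141 CPM (0.84 ± 0.13). Host microglia had Klra2 at most at 2.61 CPM and Clec12a at most at 9.56 CPM. In the opposite direction, the monocyte chemokine receptor Ccr2 ran from 29.2 to 119.9 CPM (median 68.9) against 98.7 to 149 CPM (-0.77 ± 0.25, adjusted p = 0.0131), with overlap between groups. Ccr2 did not pass in 2 of the alternatives, with an adjusted p of up to 0.143. Ifitm3, an interferon-induced membrane protein (-2.58 ± 0.16), and Tgfbi, a matrix protein of monocytes (-2.005 ± 0.10), also fell.

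Antigen presentation genes of class II were abundant on both sides. Of 10 MHC class II genes, 3 rose, 1 fell and 6 did not pass (median 0.19). Among all genes tested, 24.2% rose and 21.6% fell. H2-Aa ran from 4103 to 6306 CPM (median 5267) in donor microglia. It was at 4029 and 5220.0 CPM in the control and 5007 and 5897 CPM in the mutant host leptomeningeal libraries, inside the donor range or just under it (0.08 ± 0.20, adjusted p = 0.79). The invariant chain Cd74 differed by 0.01 ± 0.15 and H2-Ab1 by -0.25 ± 0.14, and neither passed, though H2-Ab1 did in 1 of the alternatives. Host microglia held H2-Aa at 141 to 659 CPM and donor leptomeningeal cells at 12327 to 20263 CPM, so both populations compared stood between those. H2-Eb1 rose by 0.65 ± 0.17, the peptide loader H2-DMa by 0.45 ± 0.10, and the class II activator Ciita differed by -0.49 ± 0.17 and did not pass in 2 of the alternatives (adjusted p up to 0.0982). Of 20 MHC class I genes, 11 fell and 3 rose (median -0.29), with the loading chaperone Tapbp at -1.12 ± 0.10 and the immunoproteasome subunit Psmb8 at -0.96 ± 0.09.

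Of 28 homeostatic microglia genes tested, 6 were higher in donor microglia, 12 lower and 10 did not pass (median -0.33). Shares over all genes tested were 24.2% higher and 21.6% lower. The list took 3.50% to 4.41% of UMIs in donor microglia, 3.39% to 5.63% in host leptomeningeal macrophages, 10.6% to 13.2% in host microglia and 1.47% to 2.09% in donor leptomeningeal cells. Trem2, a lipid receptor, ran from 1709 to 2581 CPM (median 2397) against 897 to 1348 CPM (1.04 ± 0.12), and the TGF-beta receptor Tgfbr1 from 461 to 964 CPM (median 769) against 203 to 352 CPM (1.48 ± 0.18). Tmem119 was higher by 0.61 ± 0.19 (adjusted p = 0.00978), with overlapping libraries. It did not pass in 2 of the alternatives, with an adjusted p of up to 0.081.

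Other microglial genes were lower than at the border. P2ry12 ran from 221 to 441 CPM (median 396) in donor microglia. It was at 1149 and 772 CPM in the control and 561 and 654 CPM in the mutant host leptomeningeal libraries (-1.04 ± 0.26, adjusted p = 0.00209). The crystallin Crybb1 ran from 59.1 to 119.7 CPM (median 95.2) against 228 to 456 CPM (-1.74 ± 0.15), and the fructose transporter Slc2a5 from 18.3 to 45.4 CPM (median 31.1) against 65.96 to 157 CPM (-1.54 ± 0.20). The growth factor receptor Csf1r fell (-0.58 ± 0.11), from 3407 to 5411 CPM (median 4192) against 5868 to 6959 CPM. Cx3cr1 (-0.21 ± 0.17), Siglech (-0.27 ± 0.23) and Sall1 (-0.55 ± 0.28, adjusted p = 0.116) did not pass, though Sall1 did in 1 of the alternatives. Host cells carried GFP in place of 1 copy of Cx3cr1 and were sorted by that GFP. The value of Cx3cr1 therefore cannot be told apart from copy number and sorting. Sall1 was at 48.4 and 30.2 CPM in the control and 18.5 and 11.4 CPM in the mutant host leptomeningeal libraries, so the control host libraries held more of it than the mutant ones. Whether RNA of microglia was present in the host leptomeningeal libraries, and its part in these falls, was not tested.

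Of 34 transcription factors of macrophage identity 10 were higher and 10 lower (median 0.19), beside 24.2% and 21.6% over all genes tested. Cebpb, a transcription factor of the C/EBP family, ran from 205 to 330.0 CPM (median 298) against 127 to 155 CPM (1.05 ± 0.11). The inhibitors of differentiation Id1 and Id2 rose by 3.09 ± 0.39 and 1.68 ± 0.12. Id1 ran from 6.19 to 50.4 CPM (median 32.1) in donor microglia against 2.24 to 4.61 CPM, and donor leptomeningeal cells held 16.3 to 25.9 CPM. Lower factors were Klf4 (-2.15 ± 0.11), which ran from 34.2 to 49.5 CPM (median 43.6) against 157 to 223 CPM, and Spi1, which encodes PU.1 (-0.68 ± 0.09). Irf8 differed by 0.30 ± 0.10 (adjusted p = 0.011) and did not pass in 2 of the alternatives. Of 21 TGF-beta pathway genes, 12 rose and 4 fell (median 0.58). Among them the ligand Tgfb1 (-1.13 ± 0.11) and Nrros, which anchors it on microglia (-1.25 ± 0.10), fell, while the inhibitor Smad7 rose by 1.36 ± 0.19. Tgfb2 and Itgb8 rose as well, chosen after their values were seen, with Itgb8 at 1.68 to 13.01 CPM in donor microglia. Itgb8 had 33 UMIs there and 3 in host leptomeningeal macrophages, a ratio of 8.691 with a counting interval of 2.726 to 44.29. Brain cells are known to make Tgfb2 and Itgb8, and the part of their RNA in these rises was not tested.

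Of 29 receptors for cytokines and chemokines 8 were higher and 9 lower (median -0.07), beside 24.2% and 21.6% over all genes tested. Cxcr4, the receptor for Cxcl12 that holds cells in the marrow, ran from 57.8 to 140.2 CPM (median 81.9) in donor microglia. It was at 17.7 and 12.3 CPM in the control and 14.4 and 20.2 CPM in the mutant host leptomeningeal libraries, all below the donor range (2.41 ± 0.20, adjusted p = 2.11e-13). Donor leptomeningeal cells held 36.4 to 56.2 CPM and host microglia at most 6.08 CPM. The interferon receptor chain Ifnar1 rose by 1.74 ± 0.17. Chemokines were mostly lower, 12 of 21, with 2 higher (median -0.85). Ccl24, which attracts eosinophils, ran from 0.974 to 10.3 CPM (median 4.22) against 200.4 to 281 CPM (-5.61 ± 0.23). The monocyte attractants Ccl2, from 23.5 to 60.4 CPM (median 46.6) against 489 to 721 CPM, and Ccl7 fell (-3.69 ± 0.16 and -4.32 ± 0.18). The rises were Cxcl14 (2.65 ± 0.33), from 21.1 to 76.2 CPM (median 52.3) against 4.71 to 10.1 CPM, and Cxcl16 (1.02 ± 0.11), from 293 to 439 CPM (median 404) against 184 to 201 CPM.

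Complement genes fell in 12 of 18 cases and rose in 1 (median -0.88), beside 21.6% falling and 24.2% rising over all genes tested. C4b, a component of the classical pathway, ran from 8.26 to 29.5 CPM (median 17.03) in donor microglia. It was at 749 and 831 CPM in the control and 1271 and 1209 CPM in the mutant host leptomeningeal libraries (-5.77 ± 0.18, adjusted p = 1.74e-21). C2, from 0.974 to 5.71 CPM (median 2.76) against 49.1 to 90.2 CPM, and properdin Cfp, from 22.4 to 57.9 CPM (median 40.9) against 203 to 352 CPM, fell (-4.64 ± 0.29 and -2.86 ± 0.13). Vsig4, the complement receptor of tissue macrophages, had 2 UMIs in donor microglia and 78 in host leptomeningeal macrophages, a ratio of 49.36 with a 95% counting interval of 13.21 to 414.8, and was chosen after its value was seen. C1qa, which was abundant on both sides, differed by -0.40 ± 0.11 and C1qb by 0.31 ± 0.13, again chosen after their values were seen, and C1qb did not pass (adjusted p = 0.0533) but did in 8 of 20 alternatives. Genes of the uptake of dying cells numbered 10 higher and 9 lower of 21 (median -0.13), with Timd4, Stab1 and Gas6 lower and Axl and Havcr2 (1.28 ± 0.13) higher.

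Fc receptors fell in 4 of 8 cases and rose in 1 (median -0.42), beside 21.6% falling and 24.2% rising over all genes tested. Fcgrt, the neonatal receptor that recycles antibody and albumin, ran from 82.6 to 117 CPM (median 92.2) in donor microglia. It was at 992 and 1049 CPM in the control and 1361 and 1165 CPM in the mutant host leptomeningeal libraries (-3.60 ± 0.10, adjusted p = 4.20e-30), and host microglia held 159 to 237 CPM, so donor microglia were below every other population. Fcgr3 (-1.27 ± 0.10) and the signalling chain Fcer1g (-1.11 ± 0.11) fell, and Fcrl1 rose (2.23 ± 0.23). Toll-like receptor genes had 3 rises and 9 falls of 17 (median -0.61), with Tlr2 at 0.82 ± 0.11 and Tlr12 at 2.26 ± 0.22 and the coreceptor Ly96 at -2.17 ± 0.33. Iron genes had 1 rise and 8 falls of 18 (median -0.40). The rise was the ferritin chain Fth1, from 5742 to 8223 CPM (median 6482) against 3076 to 4025 CPM (0.90 ± 0.10), and the transferrin receptor Tfrc fell (-2.53 ± 0.27).

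Of 16 lipid efflux genes 4 were higher and 4 lower (median 0.00), near the 24.2% and 21.6% over all genes tested. Beside Apoe, the ubiquitin ligase Mylip rose by 1.29 ± 0.16, while the phospholipid transfer protein Pltp ran from 159 to 259 CPM (median 188) against 894 to 1350.0 CPM (-2.52 ± 0.13). Of 21 cholesterol synthesis and uptake genes, 8 fell and 1 rose (median -0.49). Disease-associated microglia genes had 10 rises and 7 falls of 23 (median 0.06). Their rises included Apoe, Trem2, Axl and Fth1, and their falls the lipase Lpl (-1.26 ± 0.28) and the cathepsin Ctsl (-1.17 ± 0.11). Without mutant host library 1 Lpl differed by -0.59 and did not pass (adjusted p = 0.118). Cst7 (-0.24 ± 0.26) and Spp1 (-0.09 ± 0.46) did not pass, though Spp1 was higher by 1.16 without control host library 2 (adjusted p = 0.0187). Cathepsin and cystatin genes had 2 rises, 1 of them Ctsd (0.47 ± 0.12), and 7 falls of 16 (median -0.27).

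**Figure D5:**
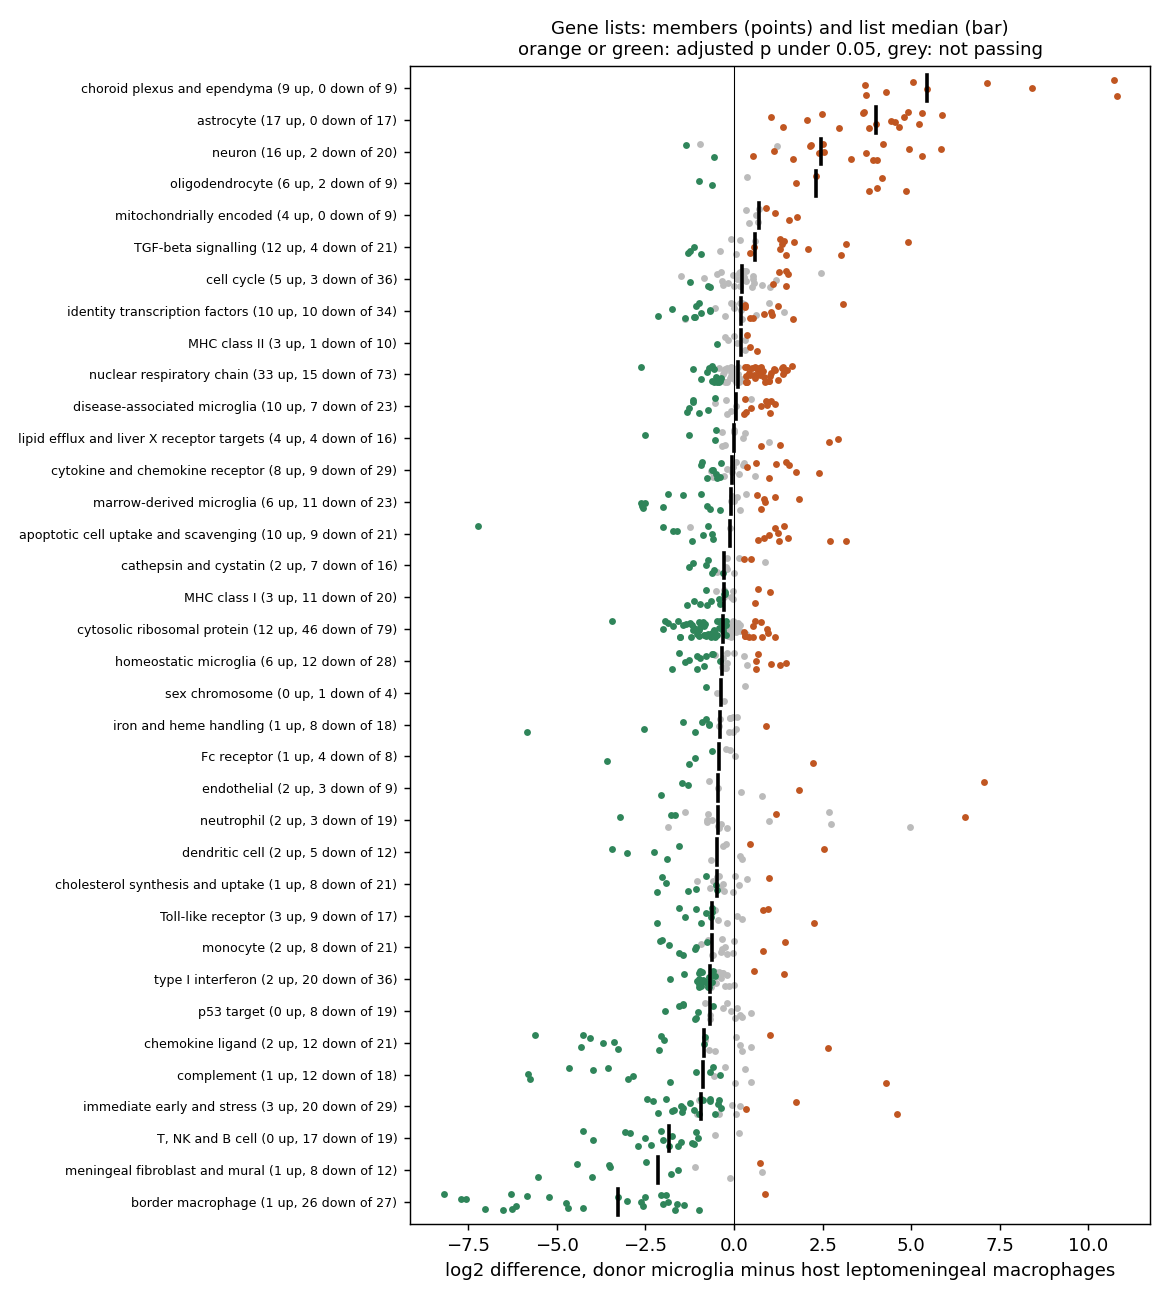
Log2 difference of donor microglia minus host leptomeningeal macrophages (x axis) for the tested members of 36 gene lists, ordered by the list median (black bar). Coloured points have an adjusted p under 0.05. Choroid plexus genes have the highest median, 5.45, and border macrophage genes the lowest, -3.28. Fitted values of genes with 0 UMIs on 1 side are no bounds.

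Type I interferon genes fell in 20 of 36 cases and rose in 2 (median -0.66), beside 21.6% and 24.2% over all genes tested. Without mutant host library 1, 11 fell and 2 rose (median -0.52). Among them were Slfn2 (-0.97 ± 0.12) and Ly6e (-0.89 ± 0.10) as falls and Bst2, tetherin, as a rise, from 1816 to 2833 CPM (median 2358) against 739 to 1113 CPM (1.40 ± 0.17). The immediate early and stress genes fell in 20 of 29 cases and rose in 3 (median -0.92). The activity-induced factor Egr1 ran from 37.2 to 88.6 CPM (median 62.4) against 178 to 256 CPM (-1.74 ± 0.15), and donor leptomeningeal cells, at 177 to 268 CPM, overlapped the host leptomeningeal range. Atf3 (-1.93 ± 0.14) and Btg2 (-1.48 ± 0.10) fell. The inducible heat shock genes went the other way. Hspa1b ran from 301 to 688 CPM (median 519) in donor microglia. It was at 13.1 and 14.5 CPM in the control and 13.4 and 41.7 CPM in the mutant host leptomeningeal libraries (4.61 ± 0.34, adjusted p = 4.21e-10), and Hspa1a, its near copy, rose by 1.74 ± 0.20. Host microglia, digested the same way as donor microglia, held Hspa1b at 112 to 228 CPM.

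Of 19 p53 targets, 8 fell and none rose (median -0.66), beside 21.6% and 24.2% over all genes tested. Cdkn1a, which encodes the cell cycle inhibitor p21, ran from 257 to 361 CPM (median 316) in donor microglia. It was at 1394 and 1142 CPM in the control and 1027 and 1281 CPM in the mutant host leptomeningeal libraries (-1.94 ± 0.11, adjusted p = 3.76e-19). Host microglia held 1473 to 2163 CPM and donor leptomeningeal cells 479 to 666 CPM, so both host populations exceeded both donor populations without overlap. Ccng1 (-1.09 ± 0.19) and Mdm2, the p53 inhibitor (-0.60 ± 0.15), fell. Of 36 cell cycle genes, 5 rose and 3 fell (median 0.23), and without mutant host library 2, 2 rose and 3 fell (median -0.07). Cytosolic ribosomal protein genes had 46 falls and 12 rises of 79 (median -0.32), and nuclear respiratory chain genes 33 rises and 15 falls of 73 (median 0.12). Of 9 mitochondrially encoded genes 4 rose and none fell (median 0.70), and 1 had libraries that did not overlap. Their share of UMIs overlapped, at 1.58% to 4.71% in donor microglia and 1.57% to 1.93% in host leptomeningeal macrophages. The part of brain cell RNA in the respiratory chain and mitochondrial rises was not tested. The median over all genes tested was 0.02, and another scaling, DESeq2's size factors, moved it to 0.07.

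The counts for genes of blood and vessel cells stand beside 24.2% higher and 21.6% lower over all genes tested. Of 19 lymphocyte genes 17 fell (median -1.85), and 10 passed without mutant host library 2. The T cell kinase Lck fell (-2.05 ± 0.23). The lymphocyte list took 0.298% of UMIs in mutant host library 2 and at most 0.106% in the other 3. Of 21 monocyte genes 8 fell and 2 rose (median -0.63), among them the calcium-binding protein S100a4 (-2.08 ± 0.30) and the integrin chain Itgal (0.83 ± 0.21). Of 19 neutrophil genes 3 fell and 2 rose (median -0.45), and 2 fell and 1 rose without control host library 1 (median 0.10). In the full comparison the secreted protease Mmp9 fell (-3.23 ± 0.30). Fibroblast and mural genes fell in 8 of 12 cases and rose in 1 (median -2.13), with the transporter Slc6a13 of meningeal fibroblasts at -4.42 ± 0.39. Dendritic cell genes had 5 falls and 2 rises of 12 and endothelial genes 3 falls and 2 rises of 9.

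Since genes of the choroid plexus and neural lists led the rises, the 10 largest rises were also taken, after the data were seen, among genes whose mean in host microglia or donor leptomeningeal cells was at least 0.25 of that in donor microglia. After Hspa1b these were Emilin1, F5, Enc1, Olfm1, Mdk, Septin5, Id1, Tmem52 and Syt11. The matrix protein Emilin1 ran from 8.27 to 50.4 CPM (median 36.7) against 0.673 to 5.14 CPM (3.97 ± 0.37). The coagulation factor F5 ran from 25.3 to 61.8 CPM (median 34.6) against 0 to 5.38 CPM (3.83 ± 0.41), with donor leptomeningeal cells at 14.5 to 32.6 CPM and host microglia at most 0.773 CPM. Enc1, an actin-binding protein, ran from 37.2 to 66.1 CPM (median 49.1) against 1.03 to 10.1 CPM (3.46 ± 0.26), with host microglia at 43.4 to 55.2 CPM and donor leptomeningeal cells at 1.38 to 5.59 CPM. A level in one of those populations was required by this choice of genes, but it could be as little as 0.25 of that in donor microglia. The part of brain cell RNA in these rises was not tested.

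The genotype of the marrow changed the comparison in 1 gene of 12327 (0.00811%), with 788 genes at an unadjusted p under 0.05. Spint1, which encodes a protease inhibitor of the cell surface (chromosome 2 of mm10, 119237362 to 119249527), ran from 7.03 to 16.5 CPM in control and 48.6 to 82.8 CPM in mutant donor microglia. It was at 49.1 and 36.9 CPM in the control and 26.7 and 17.5 CPM in the mutant host leptomeningeal libraries. The difference from host leptomeningeal macrophages was -1.95 ± 0.33 in control and 1.71 ± 0.26 in mutant chimeras, a change of 3.66 ± 0.42 log2 units (adjusted p = 2.98e-07). DESeq2's Wald test gave 4 genes and the fit without control donor library 2 gave 42, so the count depends on that library. Dnmt3a, the gene whose human form the marrow carries, was measured by the mouse symbol and ran from 51.6 to 89.1 CPM (median 65.6) against 40.2 to 49.9 CPM (0.61 ± 0.15, adjusted p = 0.000877). A count by mouse symbol does not check recombination of the human allele. Commd10, a trafficking protein gene, differed by 0.49 ± 0.19 (adjusted p = 0.0314) and did not pass in 7 of the alternatives.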

How the data were processed

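Per the file headers, the 1 table that the authors deposited holds raw, normalized and rlog columns for every library. Values in the raw columns are the deposited UMI counts by gene symbol. Per the submitters' processing notes reads were placed on mm10. No aligner is named in the sources used here. The remaining 56 deposited per-library columns were not used. The table held 14617 genes, of which 14370 matched GENCODE M21 symbols.

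Groups came from the sample labels. From the counts, edgeR 4.0.16 (R 4.3.3) filterByExpr with the 8 groups kept 12327 genes. The quasi-likelihood test of edgeR (dispersions estimated robustly, libraries scaled by TMM, all 28 libraries and 8 group means in 1 fit) was used, with Benjamini-Hochberg adjustment over all genes tested. The contrast was donor microglia minus host leptomeningeal macrophages, averaged over both genotypes. Differences are log2 values ± standard error. Log2 CPM for distances and positions used a prior count of 2.

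Members, gene lists and tests were chosen with earlier results of these data known. Named genes were the 15 largest differences in each direction (adjusted p under 0.05, mean of at least 20 CPM, libraries not overlapping), up to 3 members per list and direction of at least 10 CPM, and a fixed set of markers. A few genes that the rule picks are not reported here. Others are said to be chosen after their values were seen. The procedure was tested on simulated data for this contrast with 11395 genes. There 61% of 2-fold and 88% of 4-fold changes (2 on the log2 scale) were recovered, and 8 unchanged genes were called. Only 100 genes changed at each size, and every other gene had the same mean in all groups. In the data 45.8% of genes passed, so these rates need not hold there. No 2 libraries of a group agreed within sampling noise. Alternatives were other scalings, no low-count filter, DESeq2 1.42.0, limma 3.58.1 voom, fewer groups, a replicate block and leaving out each library.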

Additional observations from a re-analysis of the deposited data

Results flagged for a closer look

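A donor microglia library stood far from the other 3 of its genotype, by Dixon's critical value of 0.829 for 4 samples, in 31 of 328 tests, where chance gives about 1 in 20. Genes high in host leptomeningeal macrophages were among them. In control library 2 these were Cd163 at 29.5 CPM, Cd209f at 9.85, Cd209g and Fcna at 4.22 each, Ccn1 and Vsig4 at 2.81 each, and Cd209b, Timd4 and Cxcl12 at 1.41 each. In mutant library 3 they were Lyve1 at 22.9 CPM, Cd209f at 14.3, Cd209b at 1.91 and Timd4 at 0.953. All were the highest of their group and below every host leptomeningeal library, and the lowest of them rest on single UMIs. Where the other 3 libraries of a group held no UMIs, any count passes the critical value. The chance rate does not apply to such genes, so 31 of 328 cannot be read against it.

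Control library 2 also stood apart with the highest share of astrocyte genes, 0.829% of UMIs, the lowest share of identity transcription factors, 0.312%, and in Nkain4 (70.3 CPM), Pcp2 (335 CPM), Mylip (64.7 CPM), Atf3 (101 CPM), Bst2 (1863.9 CPM) and Trem2 (1889.2 CPM). Mutant library 1 stood apart in the monocyte share (0.0666%), the Fc receptor share (0.605%), C1qa (9618.0 CPM) and Cxcl14 (49.7 CPM). Control library 3 stood apart in Fcrl1 (37.4 CPM), Lck (21.1 CPM), Mmp9 (24.4 CPM) and Pltp (239 CPM), control library 4 in Ciita (35.3 CPM), and mutant library 4 in Itgal (26.9 CPM).

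The genotypes differed in Spint1 by an interaction term of 3.66 log2 units in edgeR's test.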

How the results depend on the processing

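The main count of 5651 genes ran from 4964 to 5646 with each of the 12 libraries left out in turn, and from 4239 to 5860 over the other alternatives. Left out in turn, libraries gave 2000 to 3383 genes in control chimeras, 2680 to 4242 in mutant chimeras, 1 to 42 for the genotype difference, 7136 to 7459 against host microglia and 7274 to 7587 against donor leptomeningeal cells. The genotype difference had 3 genes without control host library 1 or mutant host library 2 and 4 without mutant host library 1. With only the groups of a contrast fitted, 2029 genes passed in control chimeras and 2 for the genotype difference, and DESeq2 gave 4 for the latter. The cause was not tested beyond the smaller number of libraries. For the main contrast, the 4239 came from the restriction to 9031 genes, of which 46.9% passed, so it counts a smaller set of genes. The next lowest count was 4485, with only the groups of the contrast fitted.

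Same-numbered donor and host libraries had correlations of deviations between -0.0367 and 0.0189. With 2 host leptomeningeal libraries per genotype, their deviations mirror each other. These values therefore cannot decide whether libraries of the same number came from the same chimeras. With a replicate block 5351 genes passed in the main contrast, 3098 in control and 3958 in mutant chimeras, 2 for the genotype difference, 7323 against host microglia and 7511 against donor leptomeningeal cells.

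Over the 1000 genes of largest variance the distances were 1.29 to other donor microglia, 2.66 to host leptomeningeal macrophages, 3.04 to donor leptomeningeal cells and 3.37 to host microglia, in the same order as over all genes. With genes at least 2-fold apart, positions were 0.581 (mutant) and 0.562 (control) for border-high genes and 0.677 (control) for microglia-high genes, and DESeq2's size factors gave 0.616 (border-high, mutant). Of 217 called genes that the naming rule or the text picks, 202 passed under every alternative and 15 were lost under at least 1. Spp1, not called, ran from -0.599 without control host library 1 to 1.16 without control host library 2, where it passed in the other direction (adjusted p = 0.0187). Member counts moved for 4 of 36 lists, the neutrophil (3 without control host library 1), lymphocyte (10) and cell cycle (5, both without mutant host library 2) and interferon lists (13 without mutant host library 1). Donor microglia had the fewest UMIs, so genes under their floor of 2.86 to 6.20 CPM were not measured with precision.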

Other observations

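Several ligand and receptor pairs and gene families moved unevenly between donor microglia and host leptomeningeal macrophages, in genes chosen after their values were seen. The 4 chains of the interferon receptors were all higher in donor microglia, Ifnar1 by 1.74 ± 0.17, Ifnar2 by 0.63 ± 0.15, Ifngr1 by 1.000 ± 0.12 and Ifngr2 by 1.55 ± 0.27 log2 units, while 20 of 36 type I interferon genes were lower and 2 higher (13 passed in either direction without mutant host library 1). Ifngr2 ran from 16.9 to 41.3 CPM (median 28.1) against 5.59 to 10.8 CPM, and host microglia held 16.5 to 29.1 CPM. Cxcr4 was higher and its ligand Cxcl12 lower, with 3 UMIs in donor microglia and 50 in host leptomeningeal macrophages, a ratio of 21.09 with a 95% counting interval of 6.815 to 105.7. Meningeal fibroblast and mural genes took 0.0136% to 0.0245% of UMIs in host leptomeningeal libraries against 0.00313% to 0.00867% in donor microglia. The part of RNA from such cells in the Cxcl12 difference was not tested. Among the receptors and ligands for dying cells, Axl was higher while Mertk (-0.62 ± 0.13) and the ligands Gas6 and Pros1 (-0.88 ± 0.17) were lower.

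In the Ms4a family Ms4a7 was higher, and Ms4a6d (-1.43 ± 0.14) and Ms4a4a (-2.64 ± 0.38) were lower. Ms4a4a ran from 0 to 7.03 CPM (median 3.06) against 15.3 to 33.6 CPM, with 4.42 to 10.4 CPM in donor leptomeningeal cells. The phagocytic receptors Cd36 (-1.73 ± 0.16) and Msr1 (-1.17 ± 0.22) were lower and the bridging protein Mfge8 higher (1.53 ± 0.24), from 39.2 to 167 CPM (median 111) against 26.8 to 42.99 CPM. Astrocytes are known to make Mfge8, and the part of their RNA in that rise was not tested.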
